A study of Mus musculus with 9 samples.

Results

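The genes described here are 33 mouse genes of the interferon response and of antiviral sensing, taken by name from a fixed list and placed on their RefSeq spans. The set was split by role into 15 regulators and 18 effectors. The regulators comprise 4 interferon receptor subunits, 7 transcription factors and 4 sensors or adaptors. All were set beside the 21887 protein-coding genes of the GRCm38.p6 annotation. Of the 33 members 32 are annotated as protein-coding, and Mx2 is listed there as a transcribed pseudogene. Tmem173, the gene of the adaptor STING, was found under its newer symbol Sting1.

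Interferons are secreted proteins that cells release on contact with viruses. Type I interferons bind the Ifnar1 and Ifnar2 receptor pair, and interferon gamma binds the Ifngr1 and Ifngr2 pair. Both routes activate STAT and IRF factors, which bind short response elements in promoters and induce effector genes that block viral RNA, proteins or assembly. In blood stem cells, acute interferon exposure is known to bring quiescent cells into division, and the factor Irf2 is known in mice to restrain that signal.

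Peak lists of 9 CUT&Tag libraries from mouse bone marrow were used, in 7 groups. In CUT&Tag an antibody brings a transposase to a protein or histone mark, and the DNA cut nearby is sequenced. The cKO mice carried Dekfl/fl,Tie2-Cre, in which Cre, active in endothelial and blood cells, deletes the chromatin protein DEK. The fl mice carried Dekfl/fl without Cre. All were C57BL/6 mice of 12 weeks, kept without treatment. In LSK cells (Lin-Sca-1+c-Kit+, about 50000 cells a library), H3K4me3 and H3K27ac were each profiled in 1 cKO and 1 fl library. In haematopoietic stem cells (HSC, about 20000 cells a library), the CD48-CD150+ part of the same gate, H3K9ac was profiled in 1 cKO and 1 fl library and DEK in 3 fl libraries. H3K4me3 is a mark of active or poised promoters, and H3K27ac and H3K9ac are acetylation marks of active promoters and enhancers. With 1 library per genotype and mark there is no replicate error and no test between genotypes, and the counts below describe these libraries.

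The H3K4me3 lists held 10159 peaks in cKO and 10514 in fl, the H3K27ac lists 16331 in cKO and 10494 in fl, and the H3K9ac lists 3431 in cKO and 2172 in fl. The DEK lists held 2054, 2111 and 6147 peaks in replicates 1, 2 and 3. The lists give no read counts, so depth is unknown. Of 10 stem and progenitor marker genes, H3K4me3 peaks lay at the ends of 8 in cKO and 7 in fl, Kit included in both lists. Ly6a, which encodes Sca-1, and Slamf1, which encodes CD150, had no H3K4me3 or H3K27ac peak at an end in either genotype. H3K27ac lay at 7 of these 10 genes in cKO and at 1 in fl, and H3K9ac at 0 in both genotypes. Of 10 lineage marker genes, S100a8 alone had H3K4me3, in cKO, and Itgam alone had H3K9ac, in cKO. Of 5 marker genes of other cell types, Neurod2, a neuronal factor gene, alone had a peak, for H3K27ac in cKO. The Dek gene itself had an H3K4me3 peak in cKO and in fl and an H3K27ac peak in cKO and not in fl, which does not check the deletion.

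A gene was counted as marked when a peak overlapped by at least 1 bp the window of 1 kb on each side of either annotated gene end. H3K4me3 marked all 15 regulators in the cKO list and all 15 in the fl list. It marked 9 of the 18 effectors in cKO and 10 in fl. Over all 33 members these counts were 24 in cKO and 25 in fl, that is 72.7% and 75.8%, beside 42.7% of all protein-coding genes in cKO and 43.8% in fl. H3K27ac marked 13 members in cKO and 7 in fl, or 39.4% and 21.2%, beside 42.5% of all genes in cKO and 21.9% in fl. The members' H3K27ac shares were thus near those of all genes in each list, and their H3K4me3 shares were above them. By role, H3K27ac marked 8 regulators in cKO and 6 in fl, and 5 effectors in cKO and 1 in fl. Zbp1 and Eif2ak2 were placed among the effectors and could also be counted as sensors. With both moved to the regulators, H3K4me3 marked 16 regulators in cKO and 16 in fl, and Zbp1 was the regulator without it. The H3K27ac counts by role did not change.

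**Figure D1:**
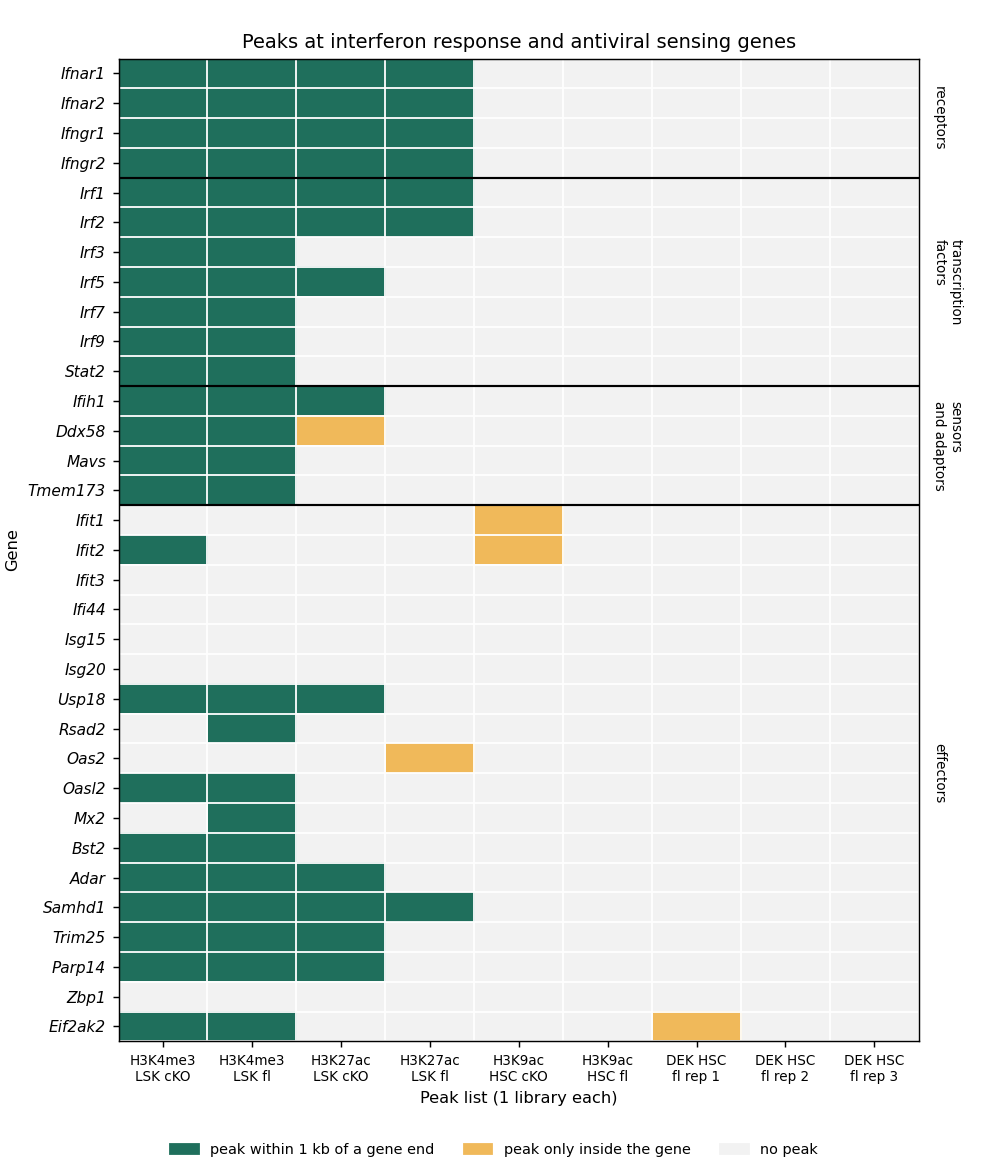
Each row is a gene, grouped by role, and each column is 1 peak list. Dark cells mark a peak within 1 kb of a gene end and orange cells a peak only inside the gene. All 15 regulators are dark in both H3K4me3 columns, 7 effectors are blank there, and the H3K9ac and DEK columns hold no dark cell.

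**Figure D2:**
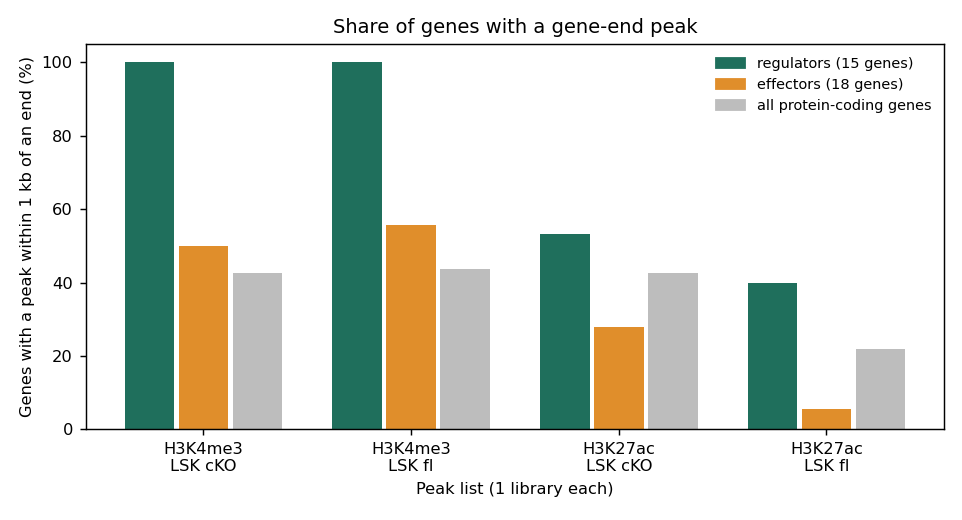
Bars give the share of genes, in percent, with a peak within 1 kb of an end in the H3K4me3 and H3K27ac lists, for the 15 regulators, the 18 effectors and all 21887 protein-coding genes. Regulators reach 100.0% for H3K4me3 in cKO and in fl, and effectors stand lowest for H3K27ac, at 27.8% in cKO and 5.56% in fl.

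Between genotypes, 23 members had H3K4me3 in both lists (41.1% of all genes did). These were the 15 regulators and the effectors Usp18, Oasl2, Bst2, Adar, Samhd1, Trim25, Parp14 and Eif2ak2. H3K4me3 was in the cKO list alone at 1 member, Ifit2, beside 1.59% of all genes. It was in the fl list alone at 2 members, Rsad2 and Mx2, beside 2.75% of all genes. The other 7 members, all effectors as grouped here, had none in either list: Ifit1, Ifit3, Ifi44, Isg15, Isg20, Oas2 and Zbp1.

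For H3K27ac, 7 members had a peak in both lists (21.5% of all genes did). These were the 4 receptor genes, Irf1, Irf2 and the effector Samhd1. Another 6 had one in the cKO list alone, namely Irf5, Ifih1, Usp18, Adar, Trim25 and Parp14, beside 20.9% of all genes. In the fl list alone there were 0, beside 0.384% of all genes. The 18.2% of members with H3K27ac in cKO alone was therefore near the share of all genes, and the cKO list was the longer of the pair. With the cKO list limited to its strongest 10494 peaks by q, Irf5 and Trim25 were the 2 members left in the cKO list alone, beside 11.0% of all genes, and 0 members were in fl alone, beside 1.93% of all genes. The part of list length in the difference between genotypes was not tested further. The stem and progenitor markers moved the same way, at 7 genes in cKO and 1 in fl, and their part was not tested either.

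Among genes with H3K4me3 in both lists, H3K27ac was looked up again. Of the 15 regulators with H3K4me3 in both, 6 had H3K27ac in both, 2 in cKO alone and 7 in neither. Of the 8 such effectors, 1 had it in both, 4 in cKO alone and 3 in neither. Of the 8993 such genes in the annotation, 49.1% had it in both, 32.9% in cKO alone, 0.545% in fl alone and 17.5% in neither. Of the 23 such members, 43.5% had H3K27ac in neither list.

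Ifngr1, Ifnar2 and Ifnar1 carried the 3 highest H3K27ac folds of the set in cKO and in fl. Fold enrichment here is the authors' value for a peak over the caller's background within its own library, so it orders peaks within a list and gives no change between lists. Ifngr1, the ligand-binding chain of the interferon gamma receptor, had an H3K27ac fold of 19.2 in cKO and 11.9 in fl. That peak stood within the top 3.89% of the cKO list and the top 26.2% of the fl list by q. Ifnar2, the high-affinity chain of the type I receptor, had folds of 16.5 in cKO and 11.9 in fl, and Ifnar1, its partner chain, 15.2 in cKO and 9.98 in fl. Ifngr2, the signalling partner of Ifngr1, had 11.5 in cKO and 8.58 in fl. Each of these H3K27ac peaks covered or adjoined the annotated 5′ end in both lists.

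For H3K4me3 the order within the receptors was different. By q, the Ifnar2 peak was the highest of all members in each list, with a −log10 q of 75.2 in cKO and 73.1 in fl, within the top 1.31% and 4.43% of the lists. Its fold was 12.3 in cKO and 10.9 in fl, and its width 1040 bp in cKO and 1228 bp in fl. Ifngr1 had H3K4me3 folds of 12.5 in cKO and 12.1 in fl, Ifnar1 10.0 in cKO and 11.5 in fl, and Ifngr2 7.33 in cKO and 9.56 in fl. A second H3K4me3 peak within 1 kb of the 3′ end of Ifnar2 lay outside the Ifnar2 span in both lists. It lay at an end of its neighbour Il10rb, and which gene it belongs to was not tested. An H3K27ac peak there, with folds of 12.5 in cKO and 9.34 in fl, also lay outside the Ifnar2 span and at Il10rb.

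Ifnar2, Ifnar1 and Ifngr2 lie together on chromosome 16, at mm10 positions 91372783 to 91564007, a stretch of 191 kb. It held 5 H3K4me3 peaks in cKO and 5 in fl, 4 H3K27ac peaks in cKO and 4 in fl, 1 H3K9ac peak in cKO and 0 in fl, and 1, 0 and 0 DEK peaks in replicates 1, 2 and 3. The H3K9ac and DEK peaks there lay at no member's end and in no member's span. The 3 Ifit genes on chromosome 19, at positions 34550550 to 34650009, lie within 99.5 kb. That stretch held 1 H3K4me3 peak in cKO and 0 in fl, 0 H3K27ac peaks in either list, 2 H3K9ac peaks in cKO and 0 in fl, and 0 DEK peaks. The receptor stretch was thus marked in each LSK list, and the Ifit stretch held a single LSK peak. In each LSK list the receptor counts include the peak near the 3′ end of Ifnar2 that also lay at Il10rb.

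All 7 transcription factors had H3K4me3 in both lists, and 3 of them had H3K27ac in cKO and 2 in fl. Irf2, which competes with activating IRFs for the same element, had the widest H3K4me3 peak of the members, 1857 bp in cKO and 1877 bp in fl. It was wider than 98.3% of the cKO list and 98.0% of the fl list. Its folds were below the list medians of 9.04 in cKO and 9.37 in fl, at 6.84 in cKO and 7.03 in fl, and its summit lay 1522 bp downstream of the 5′ end in cKO and 1294 bp in fl. H3K27ac at Irf2 formed separate peaks on either side of the start. The upstream one had a fold of 5.39 in cKO and 7.26 in fl, with summits at −240 bp in cKO and −243 bp in fl from the 5′ end. The downstream one had a fold of 8.98 in cKO and 8.17 in fl. It began 911 bp after the 5′ end in cKO, just inside the window, and 1205 bp after it in fl, just outside.

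Irf1, an activator induced by interferon gamma, had H3K4me3 folds of 8.44 in cKO and 7.50 in fl, in peaks wider than 94.8% of each list. Its H3K27ac peak was 983 bp wide in cKO and 348 bp in fl, with folds of 11.6 in cKO and 9.25 in fl. Irf5, a factor of Toll-like receptor signalling, had H3K4me3 folds of 7.55 in cKO and 5.05 in fl. Its H3K27ac peak, in cKO alone, reached a −log10 q of 23.1 with 12.6-fold enrichment, the highest of the 6 members in that class, and the nearest fl H3K27ac peak was 178 kb from the gene. Its summit lay 767 bp after the 5′ end of the gene span, at 29526130. The promoter window listed for Irf5 begins further downstream, at 29526375.

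Irf3, Irf7, Irf9 and Stat2 had H3K4me3 in both lists and H3K27ac in neither. Stat2, a partner of Irf9 in the type I interferon response, had the highest H3K4me3 fold of any member in the fl list, 14.5, with 10.9 in cKO. Irf9 had folds of 8.59 in cKO and 10.4 in fl. Irf7, the main factor for type I interferon gene induction, had 9.58 in cKO and 8.34 in fl. Irf3, the factor activated below the nucleic acid sensors, had 8.05 in cKO and 7.70 in fl. The Irf3, Irf9 and Stat2 peaks also lay at an end of another gene, Bcl2l12, Rnf31 and Apof in that order, and cannot be given to either gene. Without peaks shared in this way, H3K4me3 still marked 12 of the 15 regulators in cKO and 12 in fl.

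**Figure D3:**
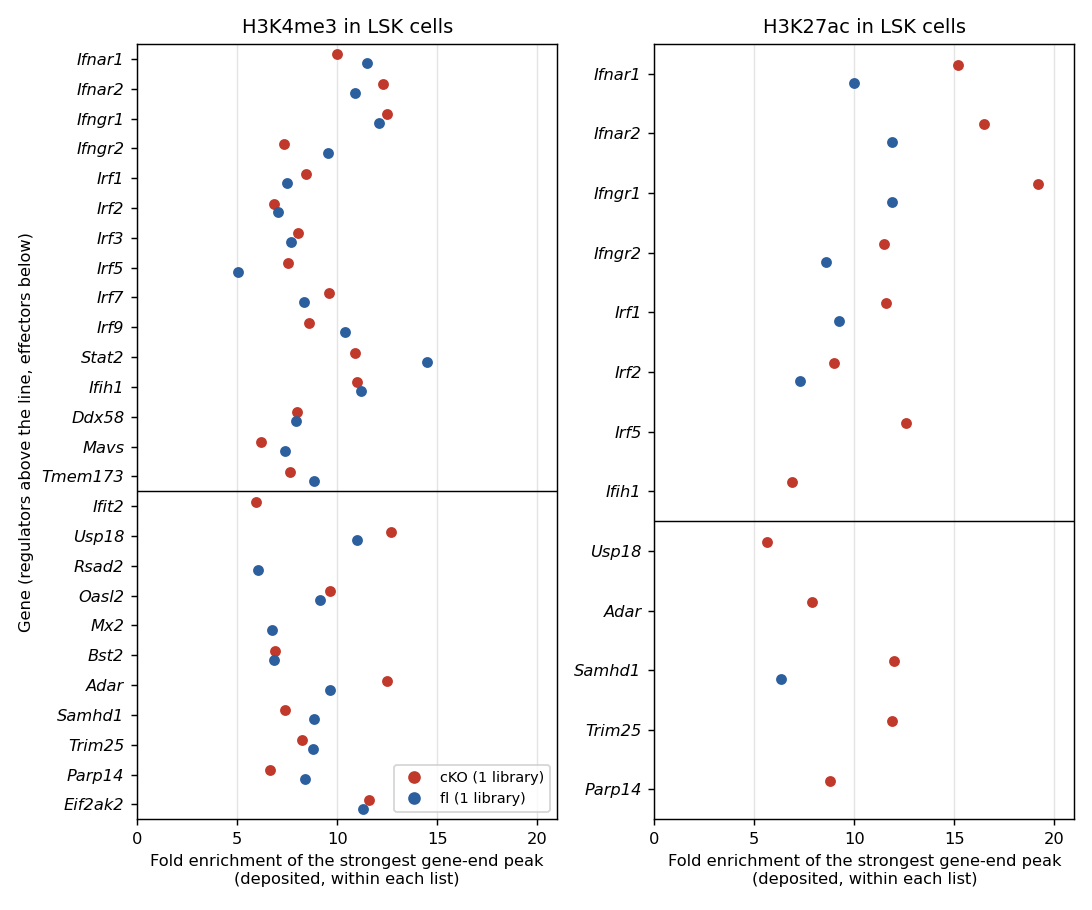
Points give the deposited fold enrichment (linear axis) of the strongest H3K4me3 or H3K27ac peak within 1 kb of a gene end, in cKO (red, 1 library) and fl (blue, 1 library). Folds are ordered within a list only. Ifngr1 stands highest for H3K27ac in cKO at 19.2, and Stat2 highest for H3K4me3 in fl at 14.5.

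The 4 genes grouped as sensors and adaptors, which leave out Zbp1 and Eif2ak2, all had H3K4me3 in both lists. Ifih1, the gene of the double-stranded RNA sensor MDA5, had folds of 11.0 in cKO and 11.2 in fl. It was the only one of these 4 genes with H3K27ac at an end, in cKO alone, at 6.91-fold enrichment (−log10 q of 7.66), and the nearest fl peak lay 18.0 kb away at Gca. Ddx58, which encodes the RNA sensor RIG-I, had H3K4me3 folds of 7.99 in cKO and 7.92 in fl. A cKO H3K27ac peak of fold 7.02 lay inside Ddx58, 4272 bp after its 5′ end. Mavs, the mitochondrial adaptor of both sensors, had the weakest H3K4me3 peak of the regulators in cKO by q, with folds of 6.18 in cKO and 7.38 in fl. Tmem173, the adaptor of DNA sensing, had folds of 7.63 in cKO and 8.84 in fl, in peaks of 1302 bp in cKO and 1654 bp in fl.

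Of the effectors, 8 had H3K4me3 in both lists. Usp18, a protease that removes ISG15 and damps the type I receptor, had the highest member fold in cKO, 12.7, with 11.0 in fl. Adar, which edits adenosine to inosine in double-stranded RNA, had 12.5 in cKO and 9.62 in fl. It was also the only member with H3K4me3 inside the gene, outside both end windows, with folds of 7.30 in cKO and 9.66 in fl. Such inside peaks occurred at 6.97% of all genes in cKO and 7.14% in fl. Eif2ak2, the gene of the double-stranded RNA kinase PKR, had 11.6 in cKO and 11.3 in fl, in a peak shared with the end of Gm26637.

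Trim25, a ubiquitin ligase that acts on RIG-I, had H3K4me3 folds of 8.25 in cKO and 8.81 in fl, in peaks of 1592 bp in cKO and 1479 bp in fl. Oasl2, an oligoadenylate synthetase-like gene, had 9.62 in cKO and 9.13 in fl. Bst2, the gene of tetherin, which holds budding virions at the membrane, had 6.91 in cKO and 6.86 in fl. Samhd1, which depletes deoxynucleotides, had 7.37 in cKO and 8.85 in fl, and Parp14, an ADP-ribosyltransferase, had 6.67 in cKO and 8.37 in fl. The folds of these 5 genes lay between 6.67 and 9.62 in cKO and between 6.86 and 9.13 in fl.

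Of the 4 effectors with H3K27ac in cKO alone, Trim25 had the highest peak, at a −log10 q of 19.4 and 11.9-fold enrichment. Parp14 had a −log10 q of 11.3 and 8.80-fold enrichment, and Adar a −log10 q of 9.45 and 7.89-fold enrichment. Usp18 was lowest, at a −log10 q of 5.52 and 5.63-fold enrichment, within the top 96.9% of the list. The whole cKO list had a median −log10 q of 18.3 and a median fold of 10.2, so Trim25 lay above it and the other 3 below it. The nearest fl H3K27ac peaks were 25.3 kb from Trim25, 200 kb from Parp14, 159 kb from Adar and 329 kb from Usp18. Samhd1, the effector with H3K27ac in both lists, had folds of 12.0 in cKO and 6.33 in fl.

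H3K4me3 peaks found in a single genotype were weak. Ifit2, an RNA-binding interferon-induced protein gene, had a cKO peak of 336 bp at 5.97-fold enrichment (−log10 q of 5.79), within the top 93.3% of that list, and the nearest fl peak was 23.0 kb from the gene. Rsad2, the gene of viperin, which makes a chain-terminating nucleotide, had a fl peak at 6.03-fold enrichment (−log10 q of 6.47). Mx2, a dynamin-like GTPase gene, had a fl peak at 6.76-fold enrichment (−log10 q of 9.35). In the lists that lack them, the nearest cKO H3K4me3 peak was 12.9 kb from Rsad2, at the neighbouring Cmpk2, and 179 kb from Mx2.

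Of the 7 effectors without H3K4me3, Isg15, a ubiquitin-like modifier, lay just outside the limit. Its nearest H3K4me3 peaks were 1.47 kb from the gene in cKO and 1.32 kb in fl, and its nearest H3K27ac peaks 1.27 kb in cKO and 1.26 kb in fl, all at its neighbour Agrn. For Isg20, an RNA exonuclease gene, the nearest H3K4me3 peak was 17.0 kb away in cKO and 16.8 kb in fl. For Oas2, which makes the oligoadenylate that activates RNase L, it was 27.4 kb in cKO and 27.3 kb in fl, at Oas3. For Zbp1, a sensor of Z-form nucleic acid, it was 56.1 kb in cKO and 56.0 kb in fl. Ifit3 had its nearest H3K4me3 peak 32.1 kb away in cKO, at Ifit2, and 55.6 kb in fl. Ifit1, which binds viral RNA ends, had it 89.9 kb away in cKO and 96.8 kb in fl, and Ifi44 292 kb in each list. Apart from Isg15, these genes thus lay at least 16.8 kb from an H3K4me3 peak in both lists.

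Inside genes and outside both end windows, H3K27ac lay at 1 member in cKO, Ddx58, beside 12.1% of all genes. In fl it lay at 2, Irf2 and Oas2, beside 7.85% of all genes. The Oas2 peak in fl reached 6.45-fold enrichment (−log10 q of 6.64), and no H3K27ac peak lay at Oas2 in cKO, where the nearest was 35.5 kb away.

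**Figure D4:**
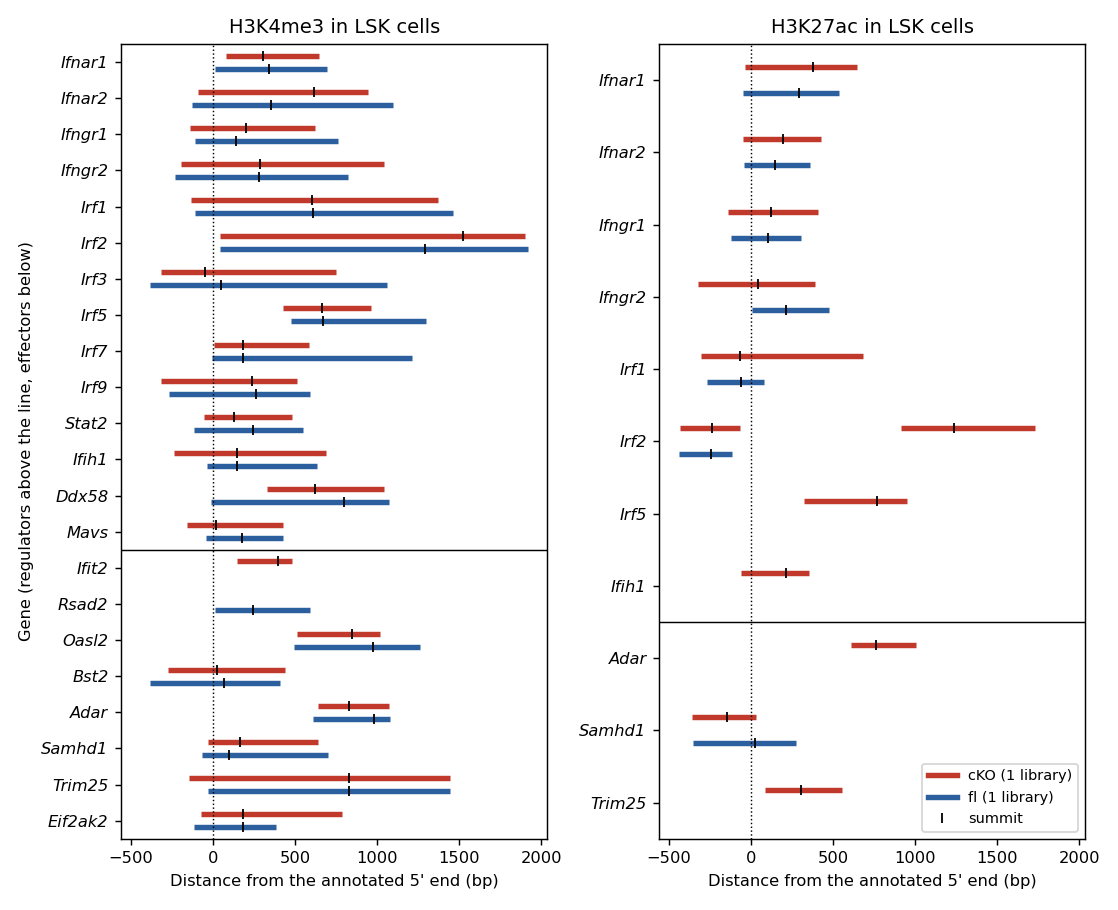
Bars give the extent of each H3K4me3 or H3K27ac peak that overlaps the window of 1 kb around the annotated 5′ end, in bp from that end, in cKO (red, 1 library) and fl (blue, 1 library), with a tick at the summit. Genes whose strand was not listed are not drawn. Most summits lie to the right of the dotted line, downstream of the 5′ end, and Irf2 has the longest H3K4me3 bars.

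Peak extents of regulators and effectors overlapped. For H3K4me3 the median width was 834 bp at the 15 regulators and 673 bp at the 9 marked effectors in cKO, beside 750 bp for the whole list. In fl it was 1054 bp at the 15 regulators and 769 bp at the 10 marked effectors, beside 787.5 bp for the whole list. The ranges in cKO ran from 535 bp to 1857 bp at regulators and from 336 bp to 1592 bp at effectors. For H3K27ac in cKO the median fold was 12.1 at 8 regulators and 8.80 at 5 effectors, with ranges of 6.91 to 19.2 and 5.63 to 12.0. The H3K4me3 summit lay downstream of the 5′ end in 20 of 21 members with a known strand in cKO and in 21 of 21 in fl, with medians of 284 bp and 265 bp.

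Promoter sequence was then set beside these classes, using the RefSeq window from 250 bases before to 50 bases after each listed start. Windows were listed for 27 of the 33 members, and not for Usp18, Oas2, Mx2, Parp14, Zbp1 and Tmem173. The interferon response element was searched as GAAANNGAA and the gamma-activated site as TTCNNNGAA, on both strands. At least 1 response element lay in the windows of 13 of the 27 members, or 48.1%, beside 9.43% of the 17492 protein-coding genes with a window. By role these were 9 of 13 effectors and 4 of 14 regulators. A gamma-activated site lay in 10 of 27 members, or 37.0%, beside 8.92% of all genes, and in Bst2 it overlapped the response element. A match describes the letters and does not show that a factor binds there.

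The windows below show where the element lies in 5 members that had H3K4me3 in both genotypes and in 2 that had it in neither, Ifit1 and Ifit3. The element is in capitals, printed as TTCNNTTTC where it reads on the opposite strand, and overlapping matches run together. In GRCm38.p6 the windows are chr8:46739495-46739794 for Irf2, chr11:88999153-88999452 for Trim25, chr3:89730468-89730767 for an internal start of Adar, chr19:34640639-34640938 for Ifit1 and chr19:34583279-34583578 for Ifit3, all on the plus strand. Those of Ifih1, chr2:62646206-62646505, and Eif2ak2, chr17:78882523-78882822, are on the minus strand. All run 5′ to 3′ along the gene.
Irf2: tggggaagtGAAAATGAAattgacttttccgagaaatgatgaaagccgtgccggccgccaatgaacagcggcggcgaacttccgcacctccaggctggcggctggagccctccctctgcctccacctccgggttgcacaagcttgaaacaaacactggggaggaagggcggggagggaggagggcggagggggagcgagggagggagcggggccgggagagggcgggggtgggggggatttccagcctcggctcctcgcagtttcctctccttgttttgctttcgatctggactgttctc
Trim25: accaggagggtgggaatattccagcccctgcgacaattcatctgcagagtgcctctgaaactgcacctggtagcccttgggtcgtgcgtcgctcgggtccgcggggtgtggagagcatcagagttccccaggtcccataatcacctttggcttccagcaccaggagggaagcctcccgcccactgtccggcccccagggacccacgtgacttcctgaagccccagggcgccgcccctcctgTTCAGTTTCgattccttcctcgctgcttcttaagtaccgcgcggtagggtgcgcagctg
Ifih1: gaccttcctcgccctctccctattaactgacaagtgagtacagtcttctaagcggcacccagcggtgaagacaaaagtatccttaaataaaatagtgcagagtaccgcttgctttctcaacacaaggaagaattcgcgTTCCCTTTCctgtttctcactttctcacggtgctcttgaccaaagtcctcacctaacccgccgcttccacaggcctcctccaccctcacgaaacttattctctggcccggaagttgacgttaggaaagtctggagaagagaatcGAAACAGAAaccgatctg
Adar: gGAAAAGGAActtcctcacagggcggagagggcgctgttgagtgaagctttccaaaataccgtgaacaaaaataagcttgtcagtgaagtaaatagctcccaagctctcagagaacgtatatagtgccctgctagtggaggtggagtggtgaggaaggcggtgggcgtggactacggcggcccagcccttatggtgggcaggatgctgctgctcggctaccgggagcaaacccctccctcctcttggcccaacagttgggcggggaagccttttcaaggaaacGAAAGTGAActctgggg
Eif2ak2: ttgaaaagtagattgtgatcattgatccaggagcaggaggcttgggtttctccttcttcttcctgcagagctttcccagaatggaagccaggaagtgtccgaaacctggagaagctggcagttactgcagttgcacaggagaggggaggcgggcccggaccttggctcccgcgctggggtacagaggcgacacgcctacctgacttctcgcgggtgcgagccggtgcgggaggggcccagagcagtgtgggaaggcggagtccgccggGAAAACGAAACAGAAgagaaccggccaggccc
Ifit1: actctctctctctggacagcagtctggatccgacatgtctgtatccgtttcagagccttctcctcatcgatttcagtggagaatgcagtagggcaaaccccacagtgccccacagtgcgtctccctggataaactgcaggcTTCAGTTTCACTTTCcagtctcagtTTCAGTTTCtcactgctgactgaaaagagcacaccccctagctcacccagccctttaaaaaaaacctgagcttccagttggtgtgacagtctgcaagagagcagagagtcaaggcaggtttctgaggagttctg
Ifit3: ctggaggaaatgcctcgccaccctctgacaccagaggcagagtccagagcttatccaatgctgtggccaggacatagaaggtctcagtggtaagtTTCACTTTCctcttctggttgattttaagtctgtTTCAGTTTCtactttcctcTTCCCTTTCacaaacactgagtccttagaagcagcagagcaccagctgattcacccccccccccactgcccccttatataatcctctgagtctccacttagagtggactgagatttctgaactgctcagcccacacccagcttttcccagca

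Positions are counted in bases from the start site, which is 0, to the leftmost letter of a match. In Ifit1 the matches lie at −109, −103 and −84, and in Ifit3 at −155, −121 and −102. Both genes therefore hold 3 copies each in their windows and had no H3K4me3, H3K27ac or DEK peak. Trim25 holds 1 match at −9, and Eif2ak2 holds overlapping matches at 18 and 24. Ifih1 has matches at −112 and 32. In Irf2 the match lies at −241, under the upstream H3K27ac peak, whose summit lay at −240 in cKO and −243 in fl. In Adar both matches belong to the internal start, near the H3K4me3 peak inside the gene. Isg15 also holds 3 overlapping matches, at −78, −72 and −66, and had no peak within 1 kb.

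CpG content was the other letter count. A window was called CpG-rich with at least 50% G and C and a CpG observed over expected ratio of at least 0.6. A gene was counted when any of its listed windows met this rule, and 5 members had over 1 window. The rule held for 15 of 27 members, 55.6%, beside 48.3% of all genes with a window. By role it held for 11 of 14 regulators against 4 of 13 effectors. Adar counted through a window with a ratio of 0.942, and its response elements lay in another window with a ratio of 0.532. All 15 CpG-rich members had H3K4me3 in both lists, beside 69.5% of CpG-rich genes overall. Of the 12 members not CpG-rich, 5 had it in both lists, beside 16.2% of such genes overall. These 5 were Irf7, Irf9, Ifih1, Oasl2 and Bst2. H3K27ac in both lists was found at 7 of the 15 CpG-rich members, beside 39.0% of CpG-rich genes, and at 0 of the 12 others, beside 6.64%. Split by role, H3K4me3 in both lists was found at 11 of 11 CpG-rich regulators and 4 of 4 CpG-rich effectors. Of the members not CpG-rich, it was found at 3 of 3 regulators and 2 of 9 effectors. The effectors without H3K4me3 in both lists thus all fell among the windows that were not CpG-rich, as far as a window was listed. Ifngr1 stood at the limit, with a ratio that rounds to 0.6, and Ifih1 just under it, with 49.0% G and C.

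**Figure D5:**
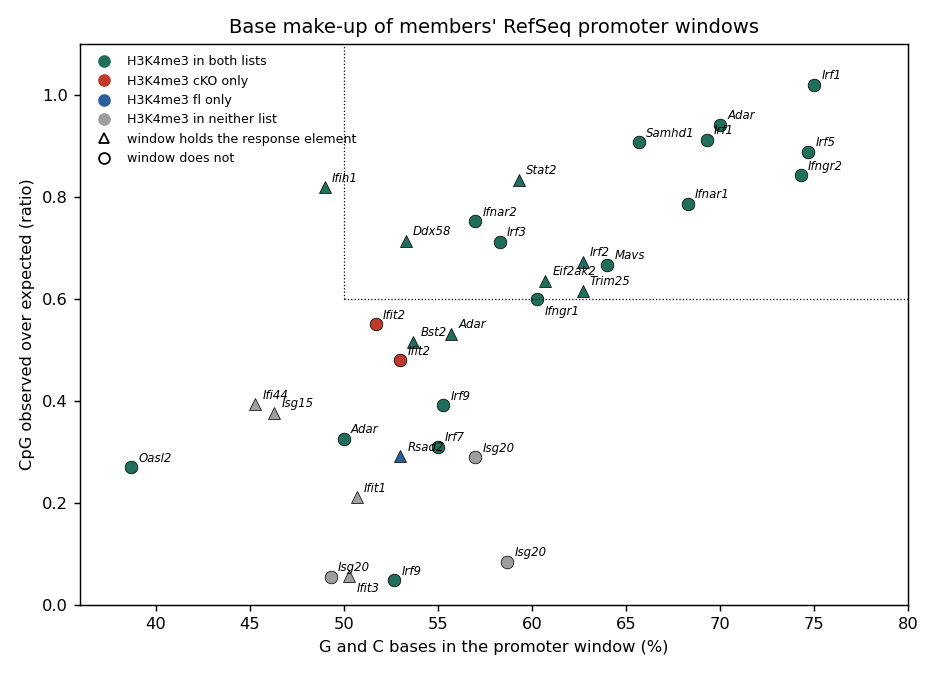
Each point is 1 RefSeq promoter window, with its G and C content in percent against the ratio of observed to expected CpG, coloured by the gene's H3K4me3 class. Triangles hold the interferon response element and the dotted lines bound the CpG-rich corner. Every point in that corner had H3K4me3 in both lists, and the grey points, with H3K4me3 in neither list, lie below 0.6.

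In HSC, H3K9ac lay at the end of 0 of 33 members in cKO and in fl, beside 1.06% of all genes in cKO and 0.658% in fl. Over all genes, 1.01% had it at an end in cKO alone and 0.608% in fl alone. Inside genes it lay at 2 members in cKO, Ifit1 and Ifit2, beside 6.25% of all genes, and at 0 in fl, beside 4.28%. The Ifit1 peak, at 6.17-fold enrichment (−log10 q of 5.01), lay 3577 bp after the 5′ end. The Ifit2 peak, at 3.72-fold enrichment (−log10 q of 2.39), lay 19433 bp after the 5′ end. A count of 2 of 33 genes is 6.06%, near the share of all genes. At these shares of all genes, a count of 0 of 33 at gene ends does not set the members apart.

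DEK peaks in fl HSC lay at the ends of 0 members in replicates 1, 2 and 3, beside 0.288%, 0.306% and 0.690% of all genes, and 1.21% of genes had one in any replicate. Inside genes, replicate 1 had a peak in Eif2ak2, at 6.47-fold enrichment (−log10 q of 5.62), beside 3.29% of all genes in that list. Replicates 2 and 3 held none at that gene. DEK was profiled in fl cells alone.

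Another 66 interferon pathway genes, from a list drawn up for comparison, were counted in the same way. Of 20 other regulators, 11 had H3K4me3 in both lists, 0 in cKO alone and 2 in fl alone, Irf8 and Ticam1. Of 46 other effectors, 35 had it in both, 0 in cKO alone and 4 in fl alone, Oasl1, Trim30a, Sp100 and Igtp. Over all genes, 41.1% had it in both, 1.59% in cKO alone and 2.75% in fl alone. H3K4me3 in both lists was thus found at 100.0% of the 15 regulators and 55.0% of the wider regulator list, and at 44.4% of the 18 effectors and 76.1% of the wider effector list. In the wider lists the effector share was the higher one, unlike in the 33 members. Part of these counts rests on peaks that also lay at another gene's end. Without such peaks, the other genes with H3K4me3 in both lists fell from 46 to 35 of the 66.

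H3K27ac lay in both lists at 5 of the 20 other regulators (25.0%) and at 6 of the 46 other effectors (13.0%), beside 21.5% of all genes. Among these effectors, Psmb9 and Tap1 were counted from the same peaks. H3K27ac was in cKO alone at 4 of the regulators (20.0%) and 2 of the effectors (4.35%), beside 20.9% of all genes. It was in fl alone at 1 regulator, Irf4, and 0 effectors, beside 0.384% of all genes. Among the effectors with H3K4me3 in both lists, 27 of 35, or 77.1%, had no H3K27ac in either, beside 17.5% of all such genes. By q in cKO, the 3 leading genes with H3K27ac in both lists were the kinase gene Tbk1, with a fold of 15.4, the immunoproteasome gene Psmb8, with 15.6, and Cmpk2, with 12.7. In cKO alone they were the signalling inhibitor Socs1, with 10.4, Trim14, with 12.4, and Parp12, with 8.05. The Tbk1 peak also lay at an end of Xpot and the Trim14 peak at an end of Coro2a, and neither can be given to a single gene. With H3K27ac lists of equal length, Socs1 and Trim14 were the 2 left in cKO alone.

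H3K9ac lay at an end of 2 of the 46 other effectors in cKO and 0 in fl, or 4.35% beside 1.06% of all genes in cKO. It lay at 0 of the 20 other regulators in cKO and 1 in fl, or 5.0% beside 0.658% of all genes in fl. DEK lay at an end of 0, 1 and 3 other effectors in replicates 1, 2 and 3, and of 0 other regulators. Of all genes, 0.288%, 0.306% and 0.690% had one in those replicates, and the effector shares in replicates 2 and 3 were 2.17% and 6.52%. These shares of the other genes rest on 1 to 3 genes each. Replicate 3 had the longest DEK list, 6147 peaks beside 2054 and 2111, and its peak names differ, as described under processing. Ifi44l had an H3K9ac peak at an end in cKO, at 22.2-fold enrichment (−log10 q of 51.6), and DEK peaks there in replicates 2 and 3, with folds of 8.71 and 7.48, but no H3K4me3 or H3K27ac. Ddx60 had H3K9ac at an end in cKO, with a fold of 2.89 (−log10 q of 1.7), and Jak1 in fl, with a fold of 2.91 (−log10 q of 1.64). At a −log10 q of at least 5, Ifi44l alone of the other genes kept H3K9ac at an end. In replicate 3 alone, DEK lay at an end of Oasl1, with a fold of 22.2, and of Ifitm3, with a fold of 6.22. Peaks inside genes were found at Tbk1 for H3K9ac in cKO and DEK in replicates 2 and 3, at Oas3 for H3K9ac in fl, and at Nlrc5 for H3K9ac in cKO. Sp100 had H3K9ac in cKO and DEK in replicate 1, Epsti1 H3K9ac in cKO and DEK in replicate 3, and Igtp DEK in replicate 1. Herc6 and Ddx60 had DEK inside the gene in replicate 3. The −log10 q of the inside H3K9ac peaks was 37.1 at Tbk1, 1.96 at Sp100, 1.82 at Nlrc5, 1.7 at Epsti1 and 1.64 at Oas3. Over all genes, inside H3K9ac peaks occurred at 6.25% in cKO and 4.28% in fl, and inside DEK peaks at 3.29% in replicate 1. No such DEK share is given for replicates 2 and 3, so the inside peaks named from them have no share of all genes beside them. The genes were named for having such a peak, so the names do not set the pathway apart.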

How the data were processed

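For each library the authors deposited its own peak list, with no pooling of samples. The submitters' processing notes name Bowtie2, Picard, MACS2 and mm10. Versions, settings, the calling threshold and any control track were not given in the sources used here. In each list the score is a whole number obtained by scaling up the authors' −log10 p, and is not −log10 p itself. The fold is the authors' ratio of a peak summit to the background of its library. The deposited −log10 p and −log10 q are p-values and q-values of the authors' caller. These values were used only within a list. In DEK replicate 3 the peak names begin with Flag, unlike in replicates 1 and 2, and its label as DEK was kept. The names there and in both H3K9ac lists also carry rmdup, which those of DEK replicates 1 and 2 lack, so duplicates may have been treated differently.

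Chromosomes 1 to 19, X and Y were kept. In the DEK lists 16 mitochondrial peaks and 11 rows whose strand, score, q or order broke the format were left out, and none of the 11 lay at a member. Gene spans, symbols and promoter windows came from RefSeq for GRCm38.p6, on mm10 coordinates counted from 1. The gene table gives no strand, so both gene ends were used. Members with a listed promoter window took their strand from it. Their 5′ end was the end of the gene span on that strand, which can differ from a listed start. Response element positions were counted from the listed start. Expression was not measured.

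All 33 members were accounted for. Members named with values were those whose H3K4me3 or H3K27ac class differed between genotypes, those with an H3K9ac or DEK peak, the 3 highest folds of each H3K4me3 and H3K27ac list, and those without H3K4me3, and values of further members were added. Promoters printed were those of the leading members with a response element, in order of H3K4me3 −log10 q in cKO, down to Eif2ak2. Added to these were 2 without an H3K4me3, H3K27ac or DEK peak. Stat2, Ddx58 and Bst2, lower in that order, also had an element and H3K4me3 in both lists and were not printed. The members and lists were chosen with earlier results of these data known. No test was run. Counting code was tested on simulated data. Python 3.11.15, numpy 2.4.6, pandas 2.3.3 and matplotlib 3.10.9 were used.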

Additional observations from a re-analysis of the deposited data

How the results depend on the processing

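Of 306 alternative values for 55 results, 295 stayed within 1.5 times of the value reported and 11 moved further. With lists of equal length, H3K27ac in cKO alone fell to 2 members (Irf5 and Trim25), to 1 other regulator and to 1 other effector, and H3K27ac in cKO marked 2 effectors. With the 5′ end alone, which leaves out genes without a listed strand, H3K27ac in cKO marked 3 effectors, and H3K4me3 in fl alone was found at 1 member. With a 2 kb window, H3K27ac in fl marked 2 effectors, Isg15 being added. With a 500 bp window, H3K4me3 in cKO alone was found at 1 other regulator (Cgas) and 1 other effector (Ifitm1), where it had been at 0. At a −log10 q of at least 5, 1 member had H3K9ac over its span in cKO. The stricter CpG rule, 55% G and C with a ratio of 0.75, left 8 members. DEK counts at member ends were 0 with each replicate left out. The alternatives that used any listed start, or that left out peaks at another gene's end, were chosen after seeing the data.

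No paired analysis was possible because each histone mark has 1 library per genotype and DEK was profiled in fl alone. The depth of each library is unknown, so an unmarked place and a place under the caller's threshold cannot be told apart. Single peaks have no replicate check.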
